A study of Mus musculus with 4 samples.

Results

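Uterine smooth muscle was described from the RNA of 1476 single cells, 710 in uterus replicate 1 and 766 in uterus replicate 2. They were taken from 8566 uterine barcodes that had 500 or more detected genes and no more than 15% of their UMIs (unique molecular identifiers, 1 per captured RNA molecule) from mitochondrial genes, and from 21326 such barcodes in the whole series. A cell was counted as smooth muscle when at least 3 of 6 genes (Myh11, Cnn1, Lmod1, Actg2, Des and Fbxl22) had a UMI and together held at least 0.03% of its UMIs. It also had to show fewer than 2 of the pericyte genes Rgs5, Ndufa4l2 and Cox4i2, and no UMI of Epcam (epithelium), Pecam1 (endothelium) or Upk3b (mesothelium). The cells were thus chosen by the measured UMIs of these 12 genes, and levels of these genes are given below as a description without a test. The series holds 4 libraries made with the droplet-based 10x Chromium 3′ v3.1 chemistry, 2 of the uterus and 2 of the oviduct. All came from wild type CD1 (ICR) mice at postnatal day 3 that had received no treatment, and every tissue was taken apart with Collagenase B, Dispase II and DNase I. Each library is a pool of animals, and the design text gives 3 and 4 neonates for the pools and the same neonates for both organs. The libraries are the replicates here, so that p-values measure the spread between pools that were handled alike and not between single animals. The same rule found 1117 and 994 cells in oviduct replicates 1 and 2, which served as the comparison.

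Smooth muscle of the uterus, the myometrium, forms from mesenchyme around the uterine epithelium and is arranged in an inner circular and an outer longitudinal layer. Its cells contract when calcium activates myosin light chain kinase, which drives myosin along smooth muscle actin, and gap junctions couple them electrically so that contractions spread. The genes of this apparatus are controlled by serum response factor (Srf) with its co-activator myocardin (Myocd). Srf binds the CArG box, a short element of paired C and G bases around a stretch of A and T. In rodents the layers are completed after birth, so that at this age the muscle is still immature and dividing.

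A member cell held a median of 15072 and 16576.5 UMIs in the uterine libraries and 14371 and 13853 in the oviduct ones. Summed over the cells, uterine smooth muscle gave 11267512 and 13256899 UMIs and oviduct smooth muscle 17972229 and 14915576. Levels are given in CPM, the UMIs of a gene scaled to a total of 1000000 UMIs in such a sum. The filter had removed 29.0% and 28.7% of the called uterine barcodes against 11.4% and 13.8% of the oviduct ones, and its part in the organ differences below was not tested. 1 barcode sequence occurred among the members of both uterine libraries. RNA free in solution made up at most 0.863% and 2.97% of the UMIs of uterine smooth muscle and 1.29% and 1.25% in the oviduct, as estimated from droplets without a cell.

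The defining genes of smooth muscle and stroma are given as a description, since both gates used them. Myh11, the smooth muscle myosin heavy chain (chr16:14194535-14291372), stood at 187 and 160 CPM in uterine smooth muscle, against 0.797 and 0.998 CPM in stroma. Here stroma means the 2894 uterine cells with at least 3 of the genes Pdgfra, Col1a1, Col1a2, Col3a1, Dcn and Tcf21 and at most 1 of the muscle markers. Cnn1 (calponin) was at 200 and 192 CPM against 3.02 and 2.52 CPM in stroma. Des (desmin) was at 208 and 206 CPM against 151 and 140 CPM. Muscle cells kept the RNA of connective tissue: the 6 stromal genes summed to 4207 and 3790 CPM in them and to 3646 and 3444 CPM in stroma. Pdgfra was lower in muscle, at 99.0 and 83.0 CPM against 193 and 171 CPM, and so was Col3a1, at 864 and 752 against 1061 and 973 CPM, while the other 4 were higher.

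Markers of other cell types were low but not all absent. The 12 pericyte and vascular muscle genes summed to 125 and 117 CPM, close to the 118 and 126 CPM of stroma, with Higd1b and Rgs4 at 0 UMIs in replicate 1, and Ebf1 stood at 6.57 and 9.73 CPM against 760 and 723 CPM in the pericyte gate. The 8 endothelial genes summed to 20.8 and 25.1 CPM, and 7 members also met a marker rule for blood endothelium. The 7 myeloid genes summed to 3.46 and 10.9 CPM, with Ptprc at 0 UMIs in replicate 1, which allows up to 0.266 CPM. The 9 epithelial genes summed to 128 CPM in both libraries, most of it Krt18 at 97.4 and 101 CPM, which was at 40.4 and 47.5 CPM in stroma. Haemoglobin and other erythroid genes summed to 116 and 188 CPM in uterine and to 85.2 and 1054 CPM in oviduct muscle. Mesothelial genes (2.22 and 5.36 CPM) and glial genes (4.62 and 3.09 CPM, with Sox10 and Foxd3 at 0) were lower still, and the skeletal muscle list gave 107 and 99.2 CPM, nearly all from Tnnt1, with Ckm at 0. The part of these other cells in the results was not tested beyond a repeat without the members that held a UMI of Rgs5, Ndufa4l2, Cox4i2, Notch3, Ptprc or Cdh5.

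Of the 6 rule genes and the 20 genes that stood highest over the other uterine cells, 18 have a promoter window in RefSeq (GRCm38.p6). A CArG box was taken as CC, 6 bases of A or T and GG without a mismatch, a pattern that is the same on both strands. In the 250 bases before the start it was found in 3 of these 18 windows (16.7%) and in 439 of 27025 genes (1.62%). Boxes that deviate from this pattern or lie elsewhere were not searched. The other 8 genes had no window and were not searched. The 3 windows with a box are printed below, and of the contractile genes described next only Myl9 is among them. Each is given 5′ to 3′ on the strand of its gene and ends at the base before the start, with the CArG box in capitals. They lie at chr9:66514594-66514843 (minus strand, Fbxl22), chr2:156775214-156775463 (plus strand, Myl9) and chrX:56779433-56779682 (plus strand, Fhl1), and the boxes begin 222, 161 and 102 bases before the RefSeq start. The start used for Fhl1 lies inside its GENCODE gene model, which begins upstream at position 56731787 and thus holds other starts that were not searched.
Fbxl22: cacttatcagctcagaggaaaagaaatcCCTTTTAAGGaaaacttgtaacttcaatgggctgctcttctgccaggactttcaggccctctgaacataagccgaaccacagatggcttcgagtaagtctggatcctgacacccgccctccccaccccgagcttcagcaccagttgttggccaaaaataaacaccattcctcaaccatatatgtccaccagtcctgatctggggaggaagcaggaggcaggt
Myl9: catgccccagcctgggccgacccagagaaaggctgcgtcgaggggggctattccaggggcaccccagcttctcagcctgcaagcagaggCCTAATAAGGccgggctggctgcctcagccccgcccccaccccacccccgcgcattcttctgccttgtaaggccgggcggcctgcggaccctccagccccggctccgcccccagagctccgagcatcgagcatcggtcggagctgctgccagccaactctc
Fhl1: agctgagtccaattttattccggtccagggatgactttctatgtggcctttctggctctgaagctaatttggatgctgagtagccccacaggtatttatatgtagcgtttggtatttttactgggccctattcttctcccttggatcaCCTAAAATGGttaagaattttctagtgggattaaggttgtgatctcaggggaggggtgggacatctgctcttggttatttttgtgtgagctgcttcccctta
Fbxl22 is a rule gene that encodes an F-box protein found in muscle, Myl9 is the regulatory light chain of smooth muscle myosin, and Fhl1 is a LIM domain protein of muscle. A match is a run of letters and not a measured binding site.

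The genes that stood highest over all other kept uterine cells included contractile and other genes. Of 2394 genes with at least 50 CPM in both muscle sums, 38 (1.59%) were at least 2-fold above the other cells in each library, a description without a test since the rule chose the cells by this contrast. Acta2, the smooth muscle actin (chr19:34241090-34255590), stood at 3881 and 4068 CPM against 711 and 768 CPM, a ratio of 5.45 and 5.30. Tagln (transgelin) had a ratio of 4.36 and 4.10, Nexn (nexilin) 3.75 and 3.76, Myl9 3.05 and 2.95, Mylk (myosin light chain kinase) 2.69 and 2.82 and Tpm2 (tropomyosin) 2.53 and 2.57. Myocd was at 85.2 and 75.0 CPM against 23.2 and 21.7 CPM in the other cells.

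The first gene of this ranking was not contractile. Pcp4, a small modulator of calmodulin, stood at 117 and 125 CPM against 16.8 and 17.2 CPM, a ratio of 6.95 and 7.26. Other genes of the 20 encode secreted or surface proteins: the chemokine Cxcl14 (269 and 234 CPM in muscle), the secreted Wnt modulator Dkk2 (78.2 and 63.3 CPM), the basement membrane protein Npnt (144 and 132 CPM) and the collagen receptor chain Itga1 (185 and 164 CPM). Itga1 was not highest in muscle, since the pericyte gate held 344 and 331 CPM. Ctgf, a matrix protein induced by stretch, had a ratio of 2.81 and 2.87, and Fbxo32, a ubiquitin ligase of muscle, 2.52 and 2.76.

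**Figure D1:**
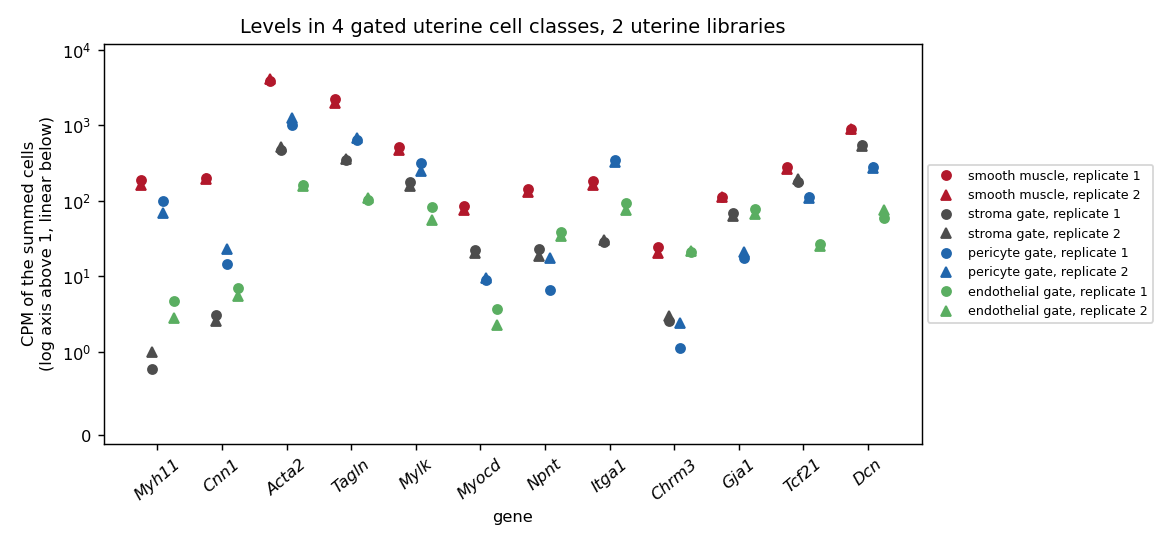
Levels in CPM (vertical axis, logarithmic above 1) of 12 genes in smooth muscle, stroma, pericyte gate and endothelial gate of the 2 uterine libraries, each point being the sum of all cells of a class in a library. Acta2 lies at 3881 and 4068 CPM in smooth muscle and at 464 and 515 CPM in stroma, whereas Itga1 is highest in the pericyte gate and Dcn is present in muscle at 884 and 885 CPM.

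Levels ran on across the limits of the rule, which cuts a range of cells. Cells with exactly 3 markers, just inside the rule, numbered 239 and 270 and had Acta2 at 2515 and 2698 CPM. Cells with exactly 2 markers, just outside it, numbered 246 and 302 and had Acta2 at 1567 and 1540 CPM. Cells with 5 or 6 markers reached 4997 and 5519 CPM. Myocd followed the same order, with 41.0 and 34.0 CPM outside, 62.0 and 48.0 CPM just inside and 105 and 90.4 CPM among cells with 5 or 6 markers.

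Within the members, cells of at least 5000 UMIs were ranked by the share that the 6 markers held of all their UMIs, at full depth, and split into 3 groups of equal size in each library. Levels in the groups were then taken after thinning each cell to 5000 UMIs. Thinning kept 695 and 751 cells and left out 15 shallower ones in each library. Of 8320 genes with at least 30 UMIs in each library, 257 (3.09%) were over 1.5-fold higher in the high than in the low group in both libraries, and 231 (2.78%) were lower by as much. Of the other contractile and cytoskeletal genes, 20 of the 31 with enough UMIs were higher and 1 was lower, in cells ranked by genes of the same apparatus. Acta2 went from 2450 to 5946 CPM in replicate 1 and from 2434 to 6009 CPM in replicate 2. Myocd went from 63.8 to 122 CPM and from 43.8 to 107 CPM.

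Genes outside the contractile list also differed along the same ranking in both libraries. Chrm3, the muscarinic acetylcholine receptor that triggers contraction, went from 12.1 to 37.2 CPM and from 12.7 to 33.6 CPM. Itga1 went from 117 to 281 CPM and from 103 to 249 CPM, Npnt from 80.2 to 219 CPM and from 63.7 to 188 CPM, and the growth factor gene Igf1 from 122 to 212 CPM and from 95.6 to 196 CPM. Cav1, the main protein of caveolae, went from 5.17 to 49.4 CPM and from 14.3 to 53.6 CPM. These 5 genes were thus over 1.5-fold higher in the high group of each library. Itga1 and Cav1 were also higher in the uterine pericyte gate than in muscle, and Cav1 was higher still in endothelium (742 and 741 CPM). The 12 pericyte genes summed to 96.6 CPM in the low and 163 CPM in the high group of replicate 1 and to 111 and 148 CPM in replicate 2, with 5 of 12 higher in the high group of each library. Abcc9 (39.7 and 77.1 CPM, 34.3 and 67.2 CPM) and Kcnj8 (6.90 and 34.6 CPM, 10.4 and 24.8 CPM) were among those 5, while Higd1b, Rgs4, Gja4 and Ndufa4l2, the last limited by the rule, had no UMI in the high group of either library. The 8 endothelial genes summed to less in the high group, at 26.7 and 13.9 CPM and at 42.2 and 16.8 CPM. The part of the pericyte genes in these differences was not tested.

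Some matrix, Wnt and cell cycle genes had the opposite order. Of 44 matrix genes measured, 8 (18.2%, against 2.78% of all measured genes) were over 1.5-fold lower and 3 (6.82%, against 3.09%) higher in the high group of both libraries, and of 21 Wnt genes 4 (19%) were lower and none was higher. Of 20 S phase genes 1 (5%) was lower, near the share of all measured genes. Eln (elastin) stood at 137 and 60.6 CPM in the low and high groups of replicate 1 and at 132 and 79.2 CPM in replicate 2, and the ligand gene Wnt4 at 162 and 110 CPM and at 156 and 99.2 CPM. Hoxd10 had the same order, with 87.1 and 49.4 CPM and 83.7 and 52.0 CPM. Hoxa10 differed little, with 296 and 278 CPM and 339 and 312 CPM, slightly lower in the high group of each library. Of the 21 G2/M genes, 6 of the 20 measured were over 1.5-fold lower in the high group of both libraries and none was higher. The share of cells with at least 4 G2/M genes stood at 22.0% in the low and 13.9% in the high group of replicate 1, and at 31.9% and 15.6% in replicate 2. Median depth before thinning was somewhat higher in the low group, at 16006.5 against 14425 UMIs in replicate 1 and 16898 against 16514.5 in replicate 2.

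**Figure D2:**
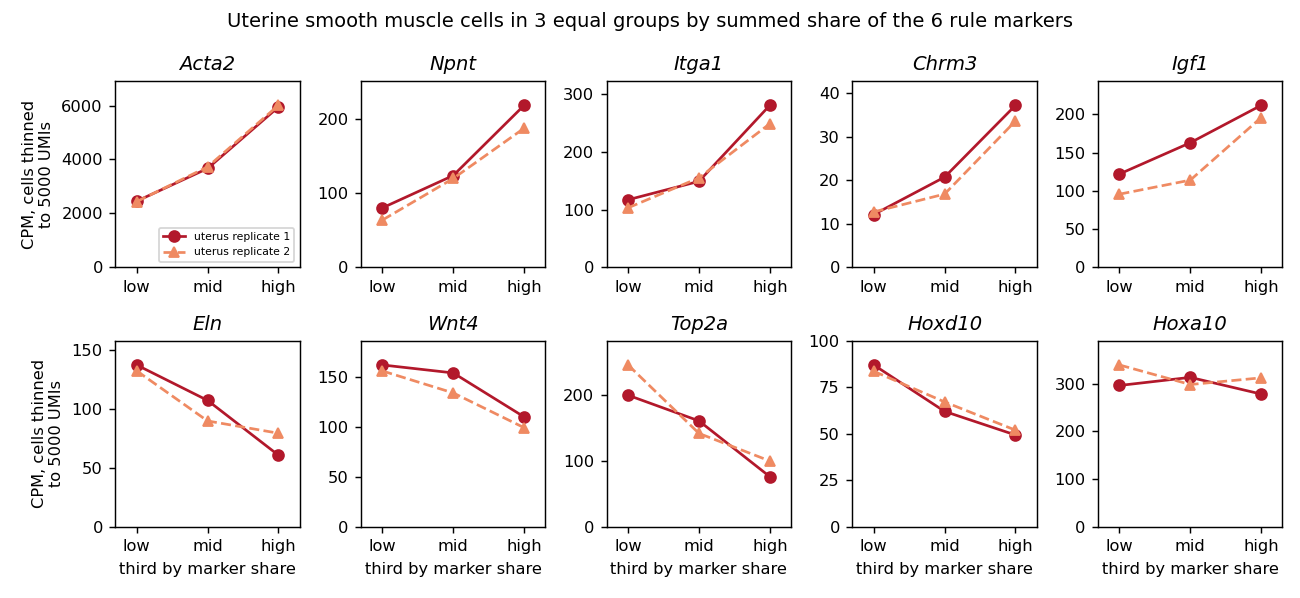
CPM (vertical axes, starting at 0) of 10 genes in the low, middle and high groups of uterine smooth muscle cells ranked at full depth by the summed share of the 6 rule markers, with levels taken after thinning each cell to 5000 UMIs; lines join the groups of a library. Acta2, Npnt, Itga1, Chrm3 and Igf1 are higher in the high group of both libraries, Eln, Wnt4, Top2a and Hoxd10 lower, and Hoxa10 differs little.

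Cell-to-cell variation was also measured without any ranking, as the ratio of variance to mean. Over 5376 genes with a mean of at least 0.1 UMIs in the thinned cells, the median ratio of variance to mean was 1.02. The nuclear RNA Malat1 stood at 13.5 and 16.6, and the histone gene Hist1h1b at 13.7 and 13.1, with a UMI in 24.6% and 23.7% of cells. Hmgb2 (8.03 and 8.95), H2afz (4.91 and 5.42), Top2a (4.96 and 5.61) and Cenpf (7.97 and 4.94) are further genes of dividing cells among the 12 highest. Acta2 (6.78 and 7.90) and Tagln (5.34 and 6.88) were the contractile members of the 12, beside the growth factor Ptn (7.20 and 6.56), the actin-binding peptide Tmsb4x (6.85 and 8.22) and the early response gene Fos (6.20 and 7.99). The remaining gene of the 12 is AY036118 (6.92 and 7.81). The ratio depends on the level too, and the 12 genes had means from 0.316 UMIs per cell (Cenpf, replicate 2) to 61.2 (Malat1, replicate 1).

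Actg2, the enteric smooth muscle actin (chr6:83512905-83536265), was the rule marker found in the fewest uterine muscle cells. It had a UMI in 40 cells (5.63%) of replicate 1 and in 77 cells (10.1%) of replicate 2, while each other marker had one in 63.4% or more of the cells of replicate 2. At equal depth the share was 1.58% (95% exact binomial interval 0.793 to 2.81) and 4.53% (3.16 to 6.27) in the uterus and 15% and 13.3% in the oviduct. These intervals cover counting error only. In blood endothelium, which should lack the gene, 0 of 156 cells of replicate 1 had a UMI, which allows up to 1.92%, and 2 of 196 cells of replicate 2 did. Free RNA accounted for at most 0.547% and 0.439% of the Actg2 UMIs of uterine muscle, and stroma held 0.171 and 0.368 CPM of the gene against 7.01 and 28.7 CPM in muscle. Actg2 was not particular to the muscle cells, since the uterine pericyte gate held 18.7 and 27.8 CPM of it. Its UMIs were not spread evenly over the muscle cells. The 10 cells with the most UMIs held 60.8% of all Actg2 UMIs in replicate 1 and 70.3% in replicate 2, out of 40 and 77 cells with a UMI of the gene.

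There were 8 cells of replicate 1 and 20 of replicate 2 with 3 or more Actg2 UMIs, and they held 55.7% and 81.8% of the UMIs of the gene. This group and the genes named for it were chosen after the values had been seen, so nothing is tested. These cells were richer in contractile RNA, with Acta2 at 6964 and 8528 CPM against 3802 and 3817 CPM in cells without Actg2. They also held Pdlim3, a muscle LIM domain gene, at 422 and 640 CPM against 34.5 and 26.8 CPM, and Gata6, a transcription factor, at 167 and 213 CPM against 17.5 and 12.6 CPM. The vesicle protein gene Syt1 stood at 119 and 142 CPM against 3.32 and 2.71 CPM, and the guidance ligand Slit2 at 207 and 142 CPM against 23.5 and 17.0 CPM. In all of these genes both libraries differed in the same direction.

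Several genes of the other uterine muscle cells were low in the Actg2 cells. Vcan, the matrix proteoglycan versican, stood at 71.6 and 107 CPM against 626 and 556 CPM, and Plac8 at 7.96 and 2.73 CPM against 90.3 and 146 CPM. Hist1h1b, a gene of S phase, was at 7.96 and 21.9 CPM against 344 and 379 CPM. Its UMIs in the Actg2 cells numbered 1 and 8, in 1 of 8 and 7 of 20 cells. Of the cells without Actg2, 266 of 670 and 274 of 689 had a UMI of Hist1h1b. Plac8 had 1 UMI in the Actg2 cells of each library. The Actg2 cells held the uterine gene Hoxa10 at 159 and 107 CPM, below the 316 and 322 CPM of cells without Actg2 and above the 38.1 and 26.6 CPM of oviduct muscle. Other genes were also compared with oviduct muscle, and they went in different ways. Syt1 (142 and 134 CPM in oviduct muscle) was near the oviduct level in the Actg2 cells. Slit2 (236 and 260 CPM) stayed below that level and Gata6 (72.7 and 53 CPM) lay above it. Plac8 (10.4 and 12.3 CPM) and Vcan (226 and 221 CPM) were lower in the Actg2 cells than in oviduct muscle. Aldh1a1 had 0 UMIs in the Actg2 cells of replicate 1, which allows up to 23.9 CPM, and 2 UMIs (5.47 CPM) in those of replicate 2, against 0.284 and 0.254 CPM in cells without Actg2 and 42.1 and 43.3 CPM in oviduct muscle. Hoxc8 was at 47.8 and 30.1 CPM in them against 4.84 and 3.81 CPM in cells without Actg2, and Nr2f1 at 39.8 and 24.6 against 2.94 and 2.63 CPM, both below the 227 and 223 CPM and the 116 and 127 CPM of oviduct muscle. The 12 pericyte genes summed to 223 and 164 CPM in the Actg2 cells (28 and 60 UMIs) against 124 and 115 CPM in cells without Actg2. Among them Notch3 had 23.9 and 24.6 CPM against 11.2 and 10.7 CPM in cells without Actg2 and 181 and 143 CPM in the pericyte gate, and Mcam had 63.7 and 41 CPM against 8.82 and 10.6 CPM and 161 and 164 CPM. Higd1b, Rgs4, Gja4, Ebf1 and the rule gene Ndufa4l2 had no UMI in the Actg2 cells of either library. A count of 0 allows up to 23.9 and 8.2 CPM in so few cells. Higd1b, Rgs4 and Gja4 were also at 1.19 CPM or less in cells without Actg2. In the Actg2 cells the 8 endothelial genes summed to 47.8 and 30.1 CPM (6 and 11 UMIs). In cells without Actg2 they summed to 20.6 and 25 CPM, and 2 and 3 of the 8 were higher in the Actg2 cells. The part of the pericyte and endothelial genes in the pattern was not tested. Cells with 1 or 2 Actg2 UMIs lay between the other groups for Pdlim3 and Gata6.

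**Figure D3:**
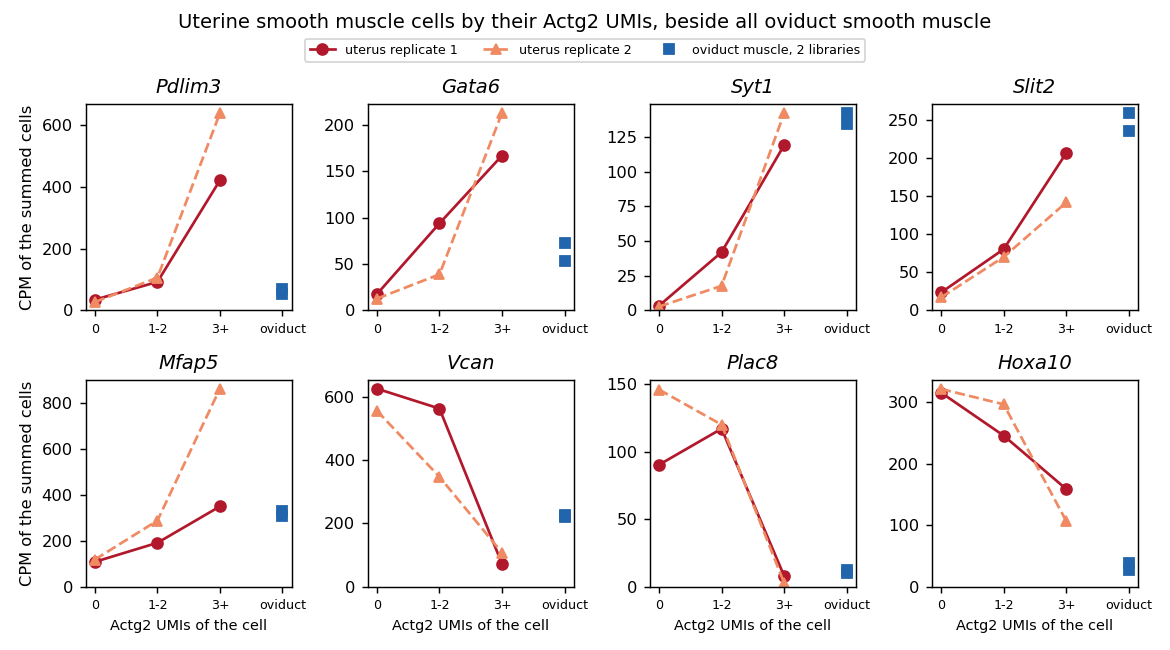
CPM (vertical axes, starting at 0) of 8 genes in uterine smooth muscle cells with 0, 1 or 2, and 3 or more Actg2 UMIs in each uterine library, with both oviduct smooth muscle sums as squares. Among the uterine cells, Pdlim3, Gata6, Syt1, Slit2 and Mfap5 are highest and Vcan, Plac8 and Hoxa10 lowest in those with 3 or more UMIs, which number 8 and 20.

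The 2 uterine libraries were close in most genes and apart in a small set. Of 5913 genes with at least 20 CPM in either library, 52 (0.879%) differed by over 1.5-fold. Cxcl10, a chemokine, was at 12.3 and 150 CPM, Cxcl1 at 3.46 and 46.8 CPM, and Nfkbia, the inhibitor of NF-kappaB, at 93.0 and 342 CPM in replicates 1 and 2. The neutrophil gene S100a9 was at 0.355 and 23.9 CPM, the histone genes Hist1h4d at 16 and 89.7 CPM and Hist1h2ae at 25.3 and 140 CPM, and the rule marker Actg2 at 7.01 and 28.7 CPM. Stroma showed the same order, with Cxcl10 at 14.3 and 96.3 CPM, Nfkbia at 98.7 and 324 CPM and Hist1h4d at 22.4 and 95.4 CPM, so that these differences were not limited to the muscle cells.

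Smooth muscle made up 17.5% (95% exact binomial interval 16.3 to 18.7) and 17.0% (15.9 to 18.1) of the kept uterine barcodes and 16.1% (15.3 to 17.0) and 17.0% (16.1 to 18.0) of the oviduct ones. The means were 17.2% ± 0.357 and 16.6% ± 0.621 (SD, n = 2 libraries each), and the difference of 0.663 percentage points lay within the spread of the libraries (2-sided exact permutation p = 0.667, where 2 against 2 libraries cannot go below 0.333). It turned to -1.91 points when the rule was applied at equal depth, and to -0.546 points when 4 markers were asked for. These libraries therefore give no order of the organs in the share of muscle cells.

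Dividing cells were compared at 5000 UMIs. The share with at least 4 G2/M genes was 18.1% and 22.8% in the uterus (29.9% and 38.8% without thinning) and 17.8% and 21% in the oviduct (28.6% and 28.8% without thinning), and the ranges overlapped (difference 1.09 points, 2-sided exact permutation p = 0.667). Between libraries of the same number the uterine share was the higher one both times, whereas at 3000 UMIs this held for replicate 1 (15.2% against 15%) and not for replicate 2 (18.4% against 19.2%). The share with as many S phase genes was 35.4% and 39.9% in uterine and 28.8% and 30.2% in oviduct smooth muscle. Both uterine values were the higher ones (difference 8.15 points, 2-sided exact permutation p = 0.333, the smallest possible). Stroma had the same order in S phase genes, with 35.0% and 34.1% in the uterus and 22.6% and 22.2% in the oviduct.

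Uterine and oviduct smooth muscle differed in 4575 of 13680 tested genes (33.4%), of which 2144 (15.7%) were higher in the uterus and 2431 (17.8%) in the oviduct. Calls rest on edgeR's quasi-likelihood test of summed counts with an adjusted p (Benjamini-Hochberg) under 0.05, and fold changes are log2 values of uterus minus oviduct with a standard error (SE). The SE was derived from the fold change and the F statistic of the test. Beyond 2-fold, 664 genes (4.85%) were higher in the uterus and 872 (6.37%) in the oviduct. In 66.8% of the tested genes the uterine and oviduct libraries had separate ranges, so that this alone marks no gene out. The genes of the rule are left out of these counts. Fewer muscle cells of a kind and less RNA per cell cannot be told apart in such sums. Without the members that held a vascular or leukocyte gene, 3911 genes were called, and without each library in turn 3583 to 3905. DESeq2 called 2889, and 1240 in place of 2144 higher in the uterus. Between the 2 libraries of an organ, summed counts differed by more than sampling noise, and chi-square divided by its degrees of freedom was 5.05 in the uterus and 10.7 in the oviduct.

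Of the 10 largest changes toward the uterus, 3 were in Hox genes, transcription factors of position. Hoxa11 (chr6:52242106-52245810) was at 135 and 132 CPM in uterine and at 3.28 and 3.55 CPM in oviduct smooth muscle, with a log2 fold change of 5.32 ± 0.12 (adjusted p = 5.40e-12). Among the 10 largest changes were also Pkib, an inhibitor of protein kinase A (41.6 and 49.9 against 0.779 and 1.68 CPM), and Pcp4l1, a relative of Pcp4 (41.1 and 42.8 against 2.56 and 1.88 CPM). S1pr3, a receptor for sphingosine 1-phosphate, stood at 43.6 and 43.0 against 3.23 and 4.22 CPM. Atp2a3, a calcium pump of the endoplasmic reticulum (21.2 and 23.2 against 1.78 and 1.94 CPM), Ackr3, a scavenger receptor of Cxcl12 (19.6 and 25.5 against 1.84 and 1.94 CPM), the glutamate receptor subunit Gria1, Plac8, Hoxd10 and Hoxd11 completed the 10, with changes from 3.39 ± 0.18 (Plac8) upward.

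Secreted regulators and enzymes led the oviduct side, and several were close to absent in uterine muscle. Aldh1a1, which makes retinoic acid, had 3 and 5 UMIs in uterine smooth muscle (0.266 and 0.377 CPM) against 42.1 and 43.3 CPM in the oviduct (-6.96 ± 0.20). Fst (follistatin, an activin antagonist) had 7 and 6 UMIs (0.621 and 0.453 CPM) against 63.6 and 70.5 CPM (-6.92 ± 0.18). Pthlh, which encodes parathyroid hormone-related protein, a relaxant of smooth muscle, stood at 0.444 and 0.453 against 51.9 and 48.6 CPM (-6.75 ± 0.19). Hpgd, the enzyme that breaks down prostaglandins, stood at 1.51 and 1.13 against 65.7 and 55.7 CPM (-5.50 ± 0.17). The nuclear receptor Nr2f1 (3.73 and 3.24 against 116 and 127 CPM), Hoxc8, Enpp2 (autotaxin), Brinp3, Plcxd3 and Dgkb completed that side, with changes from -4.53 ± 0.19 (Enpp2) downward and adjusted p of 7.35e-09 or less.

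Contractile genes were more often lower than higher in uterine muscle. The cells had been chosen by genes of the same apparatus, and uterine members were deeper. The count below was not repeated with the rule at equal depth, and the part of this choice in it was not tested. Of the 34 other contractile and cytoskeletal genes, 23 (67.6%, against 33.4% of all tested genes) were called, 4 higher in the uterus and 19 in the oviduct, and the median log2 fold change was -0.31, against 0.00229 over all tested genes. Acta2 was at 3881 and 4068 CPM in uterine and 5248 and 5374 CPM in oviduct muscle (-0.38 ± 0.08, adjusted p = 0.00197), and the call was lost without uterus replicate 1 (-0.33, adjusted p = 0.0567). Tagln did not pass the test, with 2212 and 1951 against 2471 and 2184 CPM (-0.13 ± 0.09, adjusted p = 0.307). Mylk was at 523 and 469 against 870 and 976 CPM (-0.86 ± 0.09, adjusted p = 4.27e-06). The small heat shock protein Hspb7 and the adhesion protein Pgm5 had the largest decreases of the list (-1.93 ± 0.15 and -1.62 ± 0.12).

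Palld, an actin-bundling scaffold, had the largest increase of the list. It stood at 303 and 275 CPM in uterine and 129 and 124 CPM in oviduct smooth muscle (1.23 ± 0.09, adjusted p = 1.23e-07). Hspb1 (0.97 ± 0.10) and Filip1l (0.51 ± 0.09) were also higher in the uterus. Among the markers of the rule, which carry no test, Myh11 stood at 187 and 160 CPM in uterine and 390 and 532 CPM in oviduct muscle, Lmod1 at 87.9 and 77.5 against 93.0 and 90.9 CPM and Actg2 at 7.01 and 28.7 against 74.9 and 54.0 CPM. Cells with all 6 markers made up 2.54% and 5.48% of uterine and 12.6% and 11.6% of oviduct members. These shares cannot exceed those of cells with Actg2, 5.63% and 10.1% in the uterus and 24.4% and 23.9% in the oviduct. Cells with exactly 5 markers made up 29.9% and 26.8% of uterine and 26.5% and 28.8% of oviduct members. All these shares are at full depth.

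Transcription factors of muscle and mesenchyme differed in both directions, with 7 of 30 tested genes (23.3%) higher in the uterus and 14 (46.7%) in the oviduct, against 15.7% and 17.8% of all tested genes. Tcf21, a basic helix-loop-helix factor of mesenchyme (chr10:22817281-22820174), was at 282 and 265 CPM in uterine and at 40.1 and 35.3 CPM in oviduct smooth muscle (2.89 ± 0.10, adjusted p = 1.27e-10). It is one of the genes that defined the stroma gate, and uterine stroma held less of it, 179 and 197 CPM. Meis2 (0.95 ± 0.08) and Tshz3 (1.08 ± 0.09), a regulator of smooth muscle in the urinary tract, were higher in the uterus, and Gata6 was lower (23.3 and 20.3 against 72.7 and 53.0 CPM, -1.50 ± 0.14). Srf did not pass the test (36.6 and 41.3 against 38.8 and 48.1 CPM, adjusted p = 0.466). Myocd was called lower (-0.29 ± 0.10, adjusted p = 0.0454), but the call was lost without oviduct replicate 2 (log2 fold change -0.15) or uterus replicate 2 (-0.22), and its adjusted p reached 0.439 over the alternatives. Heyl, a Notch target, was called lower from very few counts (0.621 and 0.377 against 1.56 and 1.27 CPM), and its adjusted p went from 0.0192 to 0.180 in the least favourable alternative.

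Of 33 genes of excitability and calcium handling, 10 (30.3%, against 15.7% of all tested genes) were higher in the uterus and 13 (39.4%, against 17.8%) in the oviduct. Gja1, the connexin 43 of gap junctions between myometrial cells (chr10:56377330-56402513), stood at 112 and 111 CPM in uterine and at 24.9 and 27.8 CPM in oviduct smooth muscle. Both uterine values were about 4 times the oviduct ones (2.12 ± 0.09, adjusted p = 1.37e-09). The potassium channel Kcnk3 (33.0 and 34.1 against 10.9 and 10.1 CPM, 1.72 ± 0.11) and the calcium channel Cacna1d (30.6 and 29.3 against 9.18 and 8.58 CPM, 1.79 ± 0.12) shared this direction. The small-conductance potassium channel gene Kcnn3 did too (20 and 17.5 against 5.95 and 8.85 CPM, 1.39 ± 0.17).

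Other genes of the list went in either direction or were not called. The calcium release channels Itpr1 (46.4 and 40.4 against 83.7 and 99.4 CPM, -1.04 ± 0.10) and Ryr2 (2.49 and 1.73 against 8.01 and 9.99 CPM, -2.06 ± 0.23) were lower in uterine muscle. The channel pore Kcnma1 was called higher in the uterus (18.4 and 18.8 against 12.6 and 12.9 CPM, 0.58 ± 0.12), while its smooth muscle subunit Kcnmb1 was lower (9.5 and 7.54 against 17.0 and 19.1 CPM, -1.05 ± 0.14). Kcnma1 lost its call when the rule was applied at equal depth (adjusted p = 0.0604). The main calcium channel Cacna1c was not called, with 30.8 and 26.2 against 21.4 and 27.4 CPM (adjusted p = 0.122), and neither was the other gap junction gene Gjc1 (adjusted p = 0.600). The cation channel Trpc6 had the largest decrease of the list (0.533 and 0.528 against 4.90 and 4.69 CPM, -3.12 ± 0.32).

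Receptors for hormones and agonists also split, with 7 of 21 tested genes (33.3%) higher in the uterus and 9 (42.9%) in the oviduct, where all tested genes gave 15.7% and 17.8%. Chrm3 (chr13:9875486-10360847) was at 24.3 and 20.2 CPM in uterine and 2.56 and 3.35 CPM in oviduct smooth muscle (2.95 ± 0.17, adjusted p = 1.56e-08). Uterine stroma had 2.51 and 3.00 CPM of it and uterine endothelium 21.2 and 21.6 CPM. Rxfp1, the relaxin receptor, stood at 18.1 and 15.6 against 0.389 and 1.41 CPM (4.32 ± 0.29), and uterine stroma held more, 44.7 and 40.1 CPM. Amhr2, the receptor of anti-Müllerian hormone, was at 42.8 and 35.8 against 22.4 and 16.9 CPM (1.02 ± 0.13), and the prostaglandin receptor Ptger3 at 20.6 and 20.4 against 9.68 and 8.92 CPM (1.17 ± 0.13).

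The prostaglandin receptors did not move together. Ptgfr, which mediates contraction by prostaglandin F2-alpha, was lower in uterine muscle (3.55 and 3.39 against 20.5 and 21.7 CPM, -2.56 ± 0.15), and so was Ptger2, which mediates relaxation (1.69 and 1.81 against 12.3 and 12.2 CPM, -2.76 ± 0.20). Esr1 was called lower (221 and 203 against 272 and 315 CPM, -0.43 ± 0.09, adjusted p = 0.00226) and Pgr higher (20.1 and 19.5 against 12.4 and 15.4 CPM, 0.55 ± 0.13, adjusted p = 0.00490). The oxytocin receptor Oxtr had 0 and 6 UMIs in uterine and 3 and 3 in oviduct smooth muscle and was too low to be tested. A count of 0 allows up to 0.266 CPM in uterus replicate 1. The angiotensin receptors went apart, with Agtr2 lower in uterine muscle (3.02 and 3.62 against 15.8 and 11.4 CPM, adjusted p = 6.90e-06) and Agtr1a called higher from few counts (2.31 and 3.32 against 1.61 and 0.805 CPM, adjusted p up to 0.180).

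Matrix genes were mostly lower in uterine muscle: 33 of 47 (70.2%, against 17.8% of all tested genes) were called lower and 7 (14.9%, near the 15.7% of all tested genes) higher than in oviduct muscle, with a median log2 fold change of -0.70. Col12a1, a collagen of tendon and fascia, stood at 40.9 and 42.7 CPM in uterine and at 319 and 376 CPM in oviduct muscle (-3.02 ± 0.10, adjusted p = 1.27e-10). Ltbp1, which anchors latent TGF-beta, was at 24.7 and 27.3 against 138 and 125 CPM (-2.30 ± 0.10), and the laminin chain Lama2 at 10.3 and 8.22 against 46.5 and 44.7 CPM (-2.27 ± 0.12). Eln (103 and 102 against 207 and 199 CPM, -0.95 ± 0.08), Mfap4 (-1.33, adjusted p = 3.50e-07) and Mfap5 (-1.20, adjusted p = 3.90e-06), genes of elastic fibres, were lower as well.

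Fibronectin and versican were among the 7 matrix genes higher in the uterus. Fn1 was at 593 and 510 CPM in uterine and 170 and 178 CPM in oviduct muscle (1.70 ± 0.09, adjusted p = 7.35e-09), and Vcan at 616 and 526 against 226 and 221 CPM (1.39 ± 0.09). Fbln5, a fibulin of elastic fibres, was also higher in the uterus (149 and 155 against 62.6 and 60.4 CPM, 1.34 ± 0.09). The main fibrillar collagen chains differed from each other, since Col1a2 was not called (872 and 731 against 842 and 806 CPM, adjusted p = 0.971) while Col1a1 was lower in the uterus (1206 and 1074 against 1788 and 1798 CPM, -0.62 ± 0.08).

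Of 20 tested genes of the dystrophin complex and integrins, 3 were higher in the uterus and 8 in the oviduct, against 15.7% and 17.8% of all tested genes, so that the share higher in the uterus was near the background. Dmd, which encodes dystrophin, the link from the cytoskeleton to the matrix, stood at 7.99 and 9.20 CPM in uterine and 59.8 and 68.5 CPM in oviduct smooth muscle (-2.85 ± 0.12, adjusted p = 8.17e-10). Its partner Sgcd was lower too (3.20 and 4.75 against 9.85 and 8.72 CPM, -1.17 ± 0.21). Itga1 was higher in the uterus (185 and 164 against 65.2 and 71.1 CPM, 1.39 ± 0.09, adjusted p = 5.68e-08). Its gene model overlaps that of Pelo on the same strand, so that the split of counts between them is uncertain. Itgb3 was lower in the uterus (4.17 and 3.55 against 8.74 and 13.1 CPM, -1.46 ± 0.22) and Itga3 higher (5.24 and 6.49 against 3.23 and 2.55 CPM, 1.05 ± 0.23), while the small increase of Itga8 (0.31, adjusted p = 0.0287) was lost in some alternatives (adjusted p up to 0.331).

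Of 29 tested Hox genes, 10 (34.5%) were higher in the uterus and 13 (44.8%) in the oviduct, against 15.7% and 17.8% of all tested genes. In the Hoxd cluster all 6 tested genes were higher in the uterus, among them Hoxd9 (72.5 and 74.5 against 13.2 and 12.1 CPM, 2.57 ± 0.10), Hoxd10 (65.9 and 78.8 against 7.34 and 5.77 CPM, 3.49 ± 0.14) and Hoxd11 (221 and 203 against 10.4 and 10.5 CPM, 4.38 ± 0.10). In the Hoxa cluster the 6 tested genes up to Hoxa7 were all lower in the uterus, Hoxa9 was not called (68.4 and 52.3 against 73.9 and 56.1 CPM, adjusted p = 0.694), and Hoxa10 (310 and 314 against 38.1 and 26.6 CPM, 3.30 ± 0.14) and Hoxa11 were higher in the uterus. Hox genes are ordered along the chromosome by these numbers, and genes of higher number act further toward the tail in the embryo.

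The Hoxc cluster changed direction within a few genes. Hoxc4, Hoxc5, Hoxc6, Hoxc8 and Hoxc9 were higher in the oviduct, with Hoxc8 (chr15:102990607-102994111) at 5.86 and 4.53 CPM in uterine and at 227 and 223 CPM in oviduct smooth muscle (-5.41 ± 0.12, adjusted p = 5.40e-12). Hoxc10 was lower in the uterus by less (11.3 and 11.8 against 24.3 and 20.9 CPM, -0.94 ± 0.13), and Hoxc11 was higher there (8.17 and 6.26 against 0.111 and 0.268 CPM, 5.26 ± 0.38). The gene model of Hoxc5 overlaps those of Hoxc6, Hoxc8, Hoxc9 and Hoxc10 on the same strand, which leaves its own count uncertain. The same holds for Hoxa3 with Hoxa4, Hoxa5 and Hoxa6 and for Hoxd3 with Hoxd4. Among the Hoxb genes only Hoxb9 (2.07 ± 0.22) and Hoxb4 (-0.93 ± 0.20) were called, of 7 tested. Against stroma, 3 of 33 tested Hox genes had a positive and 2 a negative interaction of organ and cell class (adjusted p under 0.05, as for 12.6% of all genes so tested), the latter being Hoxd10 (-1.06) and Hoxd11 (-1.21), and Hoxa11 stood at 153 and 141 CPM in uterine and 3.17 and 3.50 CPM in oviduct stroma.

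**Figure D4:**
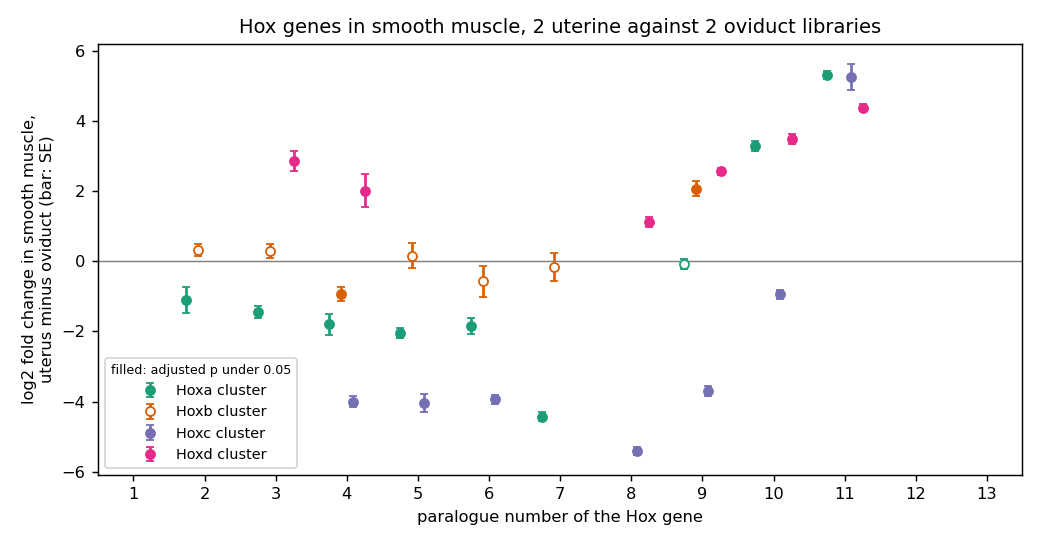
Log2 fold change in smooth muscle, uterus minus oviduct, with its standard error (vertical axis) for each tested Hox gene by its paralogue number (horizontal axis) and cluster (colour), from 2 uterine and 2 oviduct libraries; filled points have an adjusted p under 0.05. The points with numbers 10 and 11 lie above 0 except Hoxc10, the Hoxd points lie above 0 throughout, and the Hoxc points from 4 to 9 lie far below it.

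Signalling genes differed one by one. Of 32 tested Wnt genes, 10 (31.2%, against 15.7% of all tested genes) were higher in the uterus and 14 (43.8%, against 17.8%) in the oviduct. Wnt4 was higher in uterine muscle (145 and 129 against 86.0 and 67.5 CPM, 0.86 ± 0.11, adjusted p = 5.14e-05), and Wnt16 far lower (4.88 and 3.77 against 95.9 and 95.8 CPM, -4.44 ± 0.12). Wnt5a, a ligand needed for uterine patterning, was not called (258 and 228 against 219 and 237 CPM, adjusted p = 0.292), and the Wnt receptor gene Fzd1 was higher in the uterus (103 and 76.3 against 28.4 and 31.4 CPM, 1.61 ± 0.12). The receptor Lgr5 was close to absent in uterine muscle (0.355 and 0.302 against 8.74 and 8.58 CPM, -4.66 ± 0.30). Wnt2 (2.04 and 2.04 against 0.445 and 0.335 CPM, 2.38 ± 0.40) and Rspo2, an enhancer of Wnt signals (2.40 and 1.81 against 0.278 and 0.670 CPM, 2.20 ± 0.44), were higher in uterine muscle at low levels.

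Genes of the BMP and TGF-beta pathways were mostly lower in the uterus, with 20 of 34 tested lower (58.8%, against 17.8% of all tested genes) and 3 higher (8.82%, against 15.7%). The receptors Tgfbr1 (33.0 and 30.6 against 51.5 and 52.4 CPM), Tgfbr2 (52.5 and 44.7 against 85.0 and 80.3 CPM) and Tgfbr3 (24.0 and 20.1 against 50.1 and 59.1 CPM) were all lower, with log2 fold changes of -0.67, -0.73 and -1.28. The ligand Bmp3 (0.266 and 0.0754 against 3.51 and 3.49 CPM, -4.31 ± 0.47) was close to absent in uterine muscle. The ligand Gdf10 (103 and 96.9 against 46.3 and 43.7 CPM, 1.18 ± 0.09) and the target genes Id1 (0.62 ± 0.08) and Id2 (0.42 ± 0.09) were higher. In the Notch list, 1 of 11 genes was higher in the uterus and 4 in the oviduct (45.5% called, against 33.4% of all tested genes, a small difference in a list of this size). Of these, Hes1, a target gene, was at 66.6 and 81.6 against 311 and 309 CPM (-2.03 ± 0.11), and Jag1, a ligand, at 12 and 12.7 against 28.0 and 33.5 CPM (-1.27 ± 0.12). The gene called higher, Lfng (0.91), lost its call without each of the 4 libraries, with changes from 0.89 to 0.93. Nrarp (-1.40) lost its call without oviduct replicate 2 (-1.19) and without either uterine library (-1.14 and -1.78). In the hedgehog list 2 of 8 tested genes were called (25%, under the 33.4% of all tested genes), and the co-receptor Boc was lower in the uterus (15.4 and 12.1 against 49.6 and 48.2 CPM, -1.80 ± 0.12).

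Growth factor genes included some of the steepest differences. Igf1 was at 149 and 128 CPM in uterine and at 766 and 882 CPM in oviduct smooth muscle (-2.54 ± 0.10, adjusted p = 4.77e-10), while Igfbp3, which binds its product, was at 55.3 and 64.2 against 7.01 and 6.30 CPM (3.20 ± 0.13, adjusted p = 5.08e-10). Of the 20 genes of insulin-like growth factor signalling and imprinted growth control, 13 (65%, against 17.8% of all tested genes) were higher in the oviduct, among them Dlk1 (409 and 481 against 1200 and 974 CPM) and Peg3 (238 and 192 against 424 and 397 CPM), and 4 (20%, against 15.7%) in the uterus, among them the cell cycle inhibitor Cdkn1c (767 and 735 against 440 and 353 CPM, 0.95 ± 0.10). Of the 28 Fgf and retinoid genes tested, 11 (39.3%, against 15.7% of all) were higher in the uterus and 10 (35.7%, against 17.8%) in the oviduct. Fgf10 (1.07 and 1.43 against 23.4 and 30.8 CPM, -4.37 ± 0.22) and Fgf7 (3.55 and 4.30 against 30.7 and 36.9 CPM, -3.05 ± 0.15) were lower in uterine muscle, and the retinoid enzymes Rdh10 (82.4 and 72.9 against 19.3 and 16.4 CPM, 2.15 ± 0.11) and Aldh1a2 (20.4 and 22.6 against 10.1 and 7.91 CPM, 1.28 ± 0.15) were higher. Etv5, a target of Fgf signals, was higher as well (9.32 and 12 against 3.84 and 3.42 CPM, 1.59 ± 0.19). Aldh1a1 and Aldh1a2, which catalyse the same step of retinoic acid synthesis, thus differed in opposite directions.

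Genes that guide nerves and vessels were split evenly, with 16 of 37 tested higher in the uterus (43.2%, against 15.7% of all tested genes) and 15 in the oviduct (40.5%, against 17.8%). The ephrin ligand Efnb2 stood at 125 and 103 CPM in uterine and 31.8 and 30 CPM in oviduct muscle (1.92, adjusted p = 9.14e-09), and the chemokine Cxcl12 at 111 and 106 against 52.4 and 51.3 CPM (1.10, adjusted p = 3.84e-07). The guidance ligands of the Slit family went apart: Slit2 was at 28.6 and 24.8 against 236 and 260 CPM (-3.18, adjusted p = 6.59e-11) and Slit3 at 30.8 and 27.0 against 6.06 and 9.19 CPM (1.97 ± 0.16). Their receptor gene Robo2 was higher in the uterus (91.4 and 93.1 against 36.4 and 37.3 CPM, 1.36, adjusted p = 5.98e-08). Artn, a neurotrophic ligand, was higher in uterine muscle at a low level (2.93 and 2.34 against 0.835 and 0.536 CPM, 1.93 ± 0.36), and the neurofilament gene Nefl (0.266 and 0.453 against 12.3 and 8.11 CPM, -4.74 ± 0.37) and the ephrin receptor Epha3 (2.31 and 1.21 against 16.6 and 15.6 CPM, -3.19 ± 0.22) were lower.

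S phase genes leaned to the uterus (8 of 21 called higher there, 38.1% against 15.7% of all tested genes, and 1 in the oviduct), and of 21 G2/M genes 5 (23.8%, against 33.4% of all tested genes) were lower in uterine muscle and none was higher. The cyclins of S phase entry differed from each other, with Ccne1 higher (38.5 and 38.8 against 30.6 and 29.5 CPM, 0.40 ± 0.09) and Ccne2 lower in the uterus (13.8 and 13.7 against 28.0 and 32.4 CPM, -1.10 ± 0.11). Mki67 stood at 135 and 118 against 139 and 198 CPM (-0.38 ± 0.13, adjusted p = 0.0393), and its call was lost without oviduct replicate 2 (-0.11) and without uterus replicate 2 (-0.30). The calls of Hmmr and Kif11, of the same list, were lost without either of these libraries too (-0.15 and -0.16 without oviduct replicate 2, -0.40 and -0.43 without uterus replicate 2). Of 17 immediate early and stress genes, 11 were lower (64.7%, against 17.8% of all tested genes) and 3 higher (17.6%, near the 15.7% of all tested genes) in uterine muscle. Atf3 was at 23.4 and 52.3 against 214 and 280 CPM (-2.65 ± 0.25) and Nr4a1 at 53.4 and 102 against 377 and 567 CPM (-2.56 ± 0.24), while the heat shock gene Hspa1a was at 128 and 134 against 37.3 and 35.2 CPM (1.89 ± 0.09). Stroma showed the same order, with Atf3 at 22.4 and 43.1 against 240 and 289 CPM. Such genes respond to dissociation in many tissues, and their part in the other organ differences was not tested.

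Whether an organ difference was the same in smooth muscle and in the neighbouring stroma was tested as the interaction of organ and cell class. Of 14592 tested genes, 1837 (12.6%) were called by edgeR and 524 by DESeq2. The edgeR calls were 997 (6.83%) with a more positive and 840 (5.76%) with a more negative uterus minus oviduct difference in muscle. Of the genes called between the organs in muscle, 1050 were also called here. Of the contractile list, 20 of 34 were negative and 2 positive. The muscle rule asked for markers of the same apparatus as this list, and the stroma gate limited them. The choice of cells thus bears on contractile levels in both classes, and its part in this count was not tested. Of the matrix list, without the 4 genes that chose the stroma cells, 17 of 43 were positive and 7 negative. The insulin-like growth factor and imprinted list had 13 of 20 positive and 2 negative.

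In stroma Igfbp3 stood at 43.9 and 41.9 CPM in the uterus and 22.5 and 22.6 CPM in the oviduct, a far smaller difference than in muscle (interaction 2.21 ± 0.12, adjusted p = 1.05e-09). Gja1 was at 68.4 and 61.9 CPM in uterine and 25.4 and 37.7 CPM in oviduct stroma (interaction 0.99 ± 0.10, adjusted p = 1.44e-06), and Tcf21 at 179 and 197 against 64.7 and 64.2 CPM, given without a test because Tcf21 was among the genes that chose the stroma cells. The interaction of Chrm3 was 1.07 ± 0.34 (adjusted p = 0.0423), a call that rests on few counts in oviduct stroma (0.628 CPM in replicate 1). For Arhgap20 the direction was opposite: 48.0 and 45.1 against 23.2 and 21 CPM in muscle and 24.1 and 22.6 against 40 and 39.8 CPM in stroma (1.82 ± 0.10, adjusted p = 5.40e-10). Nppc, which encodes C-type natriuretic peptide, was likewise higher in uterine muscle (22.5 and 33.6 against 15.3 and 12.7 CPM) and lower in uterine stroma (8.60 and 9.35 against 19.4 and 28.1 CPM).

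Nrp2, Nr2f1 and Mcam had a negative interaction and stood higher in oviduct muscle than in oviduct stroma. The semaphorin co-receptor Nrp2 stood at 6.21 and 7.69 CPM in uterine and 106 and 140 CPM in oviduct muscle, against 11.5 and 11.0 CPM and 44.2 and 56.7 CPM in stroma (interaction -1.99 ± 0.13, adjusted p = 4.23e-09). Nr2f1 was at 10.2 and 13.5 CPM in uterine and 100 and 102 CPM in oviduct stroma (interaction -2.06 ± 0.15). Mcam, an adhesion gene that is also on the pericyte list, was at 9.23 and 11.5 against 33.4 and 41.2 CPM in muscle and at 7.86 and 8.41 against 4.97 and 7.28 CPM in stroma (interaction -2.29 ± 0.16, adjusted p = 1.04e-08). The summed pericyte list was 125 and 117 CPM in uterine and 131 and 144 CPM in oviduct muscle. Without the cells that held a vascular or leukocyte gene, the interaction of Mcam was -2.36.

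**Figure D5:**
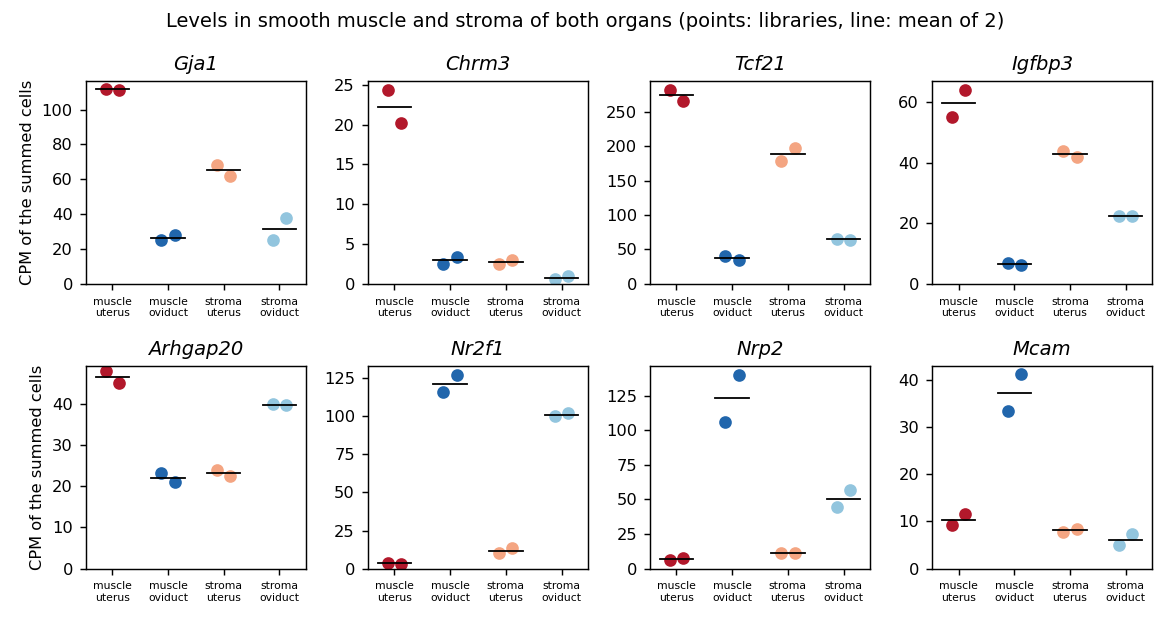
CPM (vertical axes, starting at 0) of 8 genes in smooth muscle and stroma of the uterus and oviduct; points are libraries and lines the mean of 2. Gja1, Chrm3, Tcf21 and Igfbp3 are highest in uterine muscle, Nrp2 and Mcam in oviduct muscle, and Arhgap20 is high in uterine muscle and oviduct stroma.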

How the data were processed

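RNA of dissociated single cells was measured in 2 uterus and 2 oviduct libraries. The deposited count matrices hold whole UMI counts per gene and barcode, made by the authors with Cell Ranger (6.0.1 for called barcodes and 4 for all barcodes, per the file headers) on mm10, a build that the submitters' processing notes name beside Seurat 4.2.3. Of 31053 gene identifiers, 30934 (99.6%) were found in GENCODE M21 (GRCm38), which gave the gene positions, while promoter sequences came from RefSeq (GRCm38.p6).

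Cells were chosen by the marker rule given at the start, with no further doublet removal, and their counts were summed per library. Sums were tested with edgeR 4.0.16 in R 4.3.3 (TMM, filterByExpr, quasi-likelihood, Benjamini-Hochberg adjustment over all genes tested), coded uterus minus oviduct. The interaction fit had a term per library, cell class and their product with organ. The test was checked on simulated counts, where false calls were somewhat more frequent than the nominal rate. Shares were compared by exact permutation of the libraries, after thinning to 5000 UMIs for the cell cycle. Free RNA was bounded from droplets of under 100 UMIs.

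Members and gene lists were chosen with earlier results of these data known. Named genes are the 10 largest changes per direction with at least 20 CPM in the higher organ, the 3 largest called per direction in each list, the 20 highest ratios over other uterine cells, the 6 largest interactions per sign, the 12 most variable genes and a fixed set reported whatever the result (Acta2, Tagln, Myocd, Srf, Esr1, Pgr, Oxtr, Gja1, Hoxa10, Hoxa11, Hoxd10, Wnt4, Wnt5a, Kcnma1, Igf1 and Mki67). Rule genes, ribosomal, mitochondrial, haemoglobin and unnamed gene models were left out of that choice. Other genes named were chosen after their values had been seen. Alternatives were DESeq2 1.42.0, other scaling, no filter on low counts, removal of doublets scored with scanpy 1.11.5, a stricter cell filter, at least 4 markers, the rule at 5000 UMIs, subtraction of free RNA, each library left out, and a replicate block. Leaving out members with a vascular or leukocyte gene was chosen after seeing the data. Some genes are not reported here.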

Additional observations from a re-analysis of the deposited data

Results flagged for a closer look

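The organ difference of 12 genes in smooth muscle differed from that of the same genes in stroma by the edgeR test of the interaction, given here as the muscle effect minus the stroma effect on the log2 scale. These are the 6 largest of each sign by the naming rule, out of 1837 called genes. All 12 were chosen among genes called between the organs in muscle. Their uterine and oviduct libraries had separate ranges there, as in 66.8% of all tested genes, so that this marks none of them out.

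Of those with a more positive effect in muscle, Nppc had an interaction of 2.34 ± 0.20 (SE, adjusted p = 1.10e-07). Igfbp3 had 2.21 ± 0.12 (adjusted p = 1.05e-09) and Arhgap20 1.82 ± 0.10 (adjusted p = 5.40e-10), both described above. Vstm2b had 1.94 ± 0.12, from 25.1 and 26.0 CPM in uterine against 58.2 and 53.2 CPM in oviduct muscle and from 10.6 and 10.1 against 83.2 and 93.5 CPM in stroma. Chrm2, a muscarinic receptor, had 1.80 ± 0.15, with 16.6 and 12.5 against 20.5 and 23.1 CPM in muscle and 4.78 and 4.78 against 24.6 and 26.3 CPM in stroma. The organ call of Chrm2 within muscle was lost with at least 4 markers (-0.19), with the rule at 5000 UMIs (-0.17) and without uterus replicate 2 (-0.37). Nefm, a neurofilament gene, had 2.17 ± 0.41 (adjusted p = 0.00111), with 3.37 and 1.43 against 20.4 and 22.2 CPM in muscle and 3.25 and 2.94 against 154 and 102 CPM in stroma. It lost its call when members with a vascular or leukocyte gene were left out, where the interaction of Nefm was 1.42.

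Of those with a more negative effect in muscle, Hpgd had -2.43 ± 0.23, with 5.92 and 4.73 CPM in uterine and 46.9 and 45.6 CPM in oviduct stroma. In the library with the highest bound, 13.7% of the Hpgd counts of muscle could be free RNA. Ntng1, a netrin-like surface protein, had -2.33 ± 0.22, from 2.31 and 2.34 against 31.7 and 35.9 CPM in muscle and 6.78 and 7.09 against 21.6 and 18.7 CPM in stroma. Ranbp17 had -2.11 ± 0.21, from 3.91 and 4.07 against 26.9 and 31.9 CPM in muscle and 4.21 and 3.89 against 5.77 and 8.42 CPM in stroma, and its gene model overlaps that of Gm12117. Mcam had -2.29 ± 0.16, Nr2f1 -2.06 ± 0.15 and Nrp2 -1.99 ± 0.13, with the levels given above. Mcam was at 161 and 164 CPM in the uterine pericyte gate.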

How the results depend on the processing

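Over 1718 refits of the 123 named genes between the organs, 1641 kept their side of the threshold and 76 lost the call. The call was gained in 1 (Wnt5a, 0.31 with the rule at 5000 UMIs). No gene called in the main fit or in the refit reversed its direction, and a change of direction without a call in either was not counted. Of 156 refits of the 12 named interactions, 155 kept their direction and their side of the threshold and 1 (Nefm) lost the call. DESeq2 called 2889 genes between the organs in place of 4575, 1240 of them higher in the uterus in place of 2144, and 524 interactions in place of 1837, 315 positive in place of 997 and 209 negative in place of 840. With the rule at 5000 UMIs, 522 negative interactions were called. The cause was not tested. Leaving out 1 library at a time gave 3583 to 3905 organ calls and 1367 to 2260 interactions.

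The difference in the share of muscle cells (0.663 points) became -0.546 with at least 4 markers and -1.91 with the rule at 5000 UMIs. The difference in G2/M cells (1.09 points) became -0.135 under the stricter filter and -0.3 at 3000 UMIs, and ranged from -1.23 (without uterus replicate 2) to 3.41 (without uterus replicate 1) when a library was left out, with -0.505 without oviduct replicate 1. With the replicate block 4900 genes were called, 2309 higher in the uterus and 2591 in the oviduct, and no named gene changed its call. Same-numbered deviations from the organ means correlated at 0.151 over 13688 genes. The design text gives shared neonates for both organs without saying which number is which pool, so the block was kept as an alternative.

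With 2 libraries per organ, exact permutation cannot pass 0.05 for shares, and genes of a few UMIs per library (Oxtr, Aldh1a1 in the uterus) have wide counting error.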
